A study of Mus musculus with 4 samples.

Results

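Mitochondrial ribosomal protein genes were examined in m6A meRIP-seq data from mouse c-Kit+ cells. They were taken as all protein-coding genes of the GENCODE M21 annotation of GRCm38 whose symbol is Mrpl or Mrps followed by a digit, which gave 78 of 21938 protein-coding genes. In meRIP-seq, RNA is fragmented, the fragments that carry N6-methyladenosine (m6A) are pulled down with an antibody, and sites are found as peaks of pulled-down (IP) reads over a background. Per the labels, the samples were C57BL/6 foetal liver cells enriched with magnetic beads for Kit, a receptor of stem and progenitor cells, with 2 IP and 2 input samples. Per the study's methods, the cells were of the genotype Ythdf2 CTL, that is Ythdf2 fl/fl without Cre, and every sample therefore carried an allele with loxP sites around exon 2 and GFP fused to YTHDF2. One peak list per IP replicate was analysed, the first with 15635 peaks and the other with 14872. The series has no second genotype or treatment among its IP samples, so all comparisons here were between genes and none was tested.

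Mitochondria translate the few proteins encoded by their own genome on a ribosome of their own. Its RNA comes from the mitochondrial genome, but all of its proteins are encoded in the nucleus, made in the cytosol and imported. Members named Mrpl belong to the large subunit, which joins amino acids, and most members named Mrps to the small subunit, which reads the codons. Mrps18a and Mrps30 are proteins of the large subunit despite their names and are counted there. Some have counterparts in bacterial ribosomes and others are found in mitochondria only. m6A on their mRNAs can be bound by reader proteins such as YTHDF2, which promotes the decay of the mRNA. m6A is laid down at a consensus called DRACH, and its most frequent sites lie around stop codons and in long exons.

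The sites that carry the strongest peaks are shown first. In 8 members, chosen as those with the highest fold enrichment in their lower replicate, the capitals mark the GGAC within 50 nt of either summit. Where there was none, they mark the nearest DRACH, which is A, G or T, then A or G, then A and C, then any base but G. The third base in capitals is the adenosine that can be methylated.
Mrpl15: ggtgaatctgaaGGACtgcttactcaaca
Mrps28: ggtcccacgccgGGACtgctgggagccgt
Mrps15: gctgcgcccatgTAACCtggatccaccgc
Mrpl46: ctggcggcagctTGACAggttctgggcag
Mrps22: tggctgcagtcaGAACAccgttgtcgctg
Mrpl37: tcggaggttacgGGACtccgaaacgtggg
Mrpl52: tggctgccttagGGACctggctgtcca
Mrps27: ggctctatgccaAGACActgtctgcccat

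The Mrpl15 site lay at chr1:4781975-4782003 (minus strand) in a 3′ UTR, and its adenosine was 23 nt downstream of the summit of replicate 1 and 1 nt from that of replicate 2. The Mrps28 site (chr3:8923752-8923780, minus strand) and the Mrpl37 site (chr4:107066709-107066737, minus strand) lay in the coding part of exon 1. The Mrpl52 site (chr14:54426934-54426960, plus strand) also lay in the coding part of exon 1, and 27 nt are shown because the exon ends there. In these genes the adenosine was between 10 and 43 nt from either summit. Mrps15 (chr4:126046994-126047022, plus strand, 5′ UTR), Mrpl46 (chr7:78782956-78782984, minus strand, coding) and Mrps22 (chr9:98601615-98601643, minus strand, coding) had no GGAC within 50 nt, and a DRACH other than GGAC lay 2 to 31 nt from their summits. The Mrps27 site (chr13:99415084-99415112, plus strand) was in the 3′ UTR of exon 11, 3 nt from one summit and 2 nt from the other. A match to a motif describes the sequence and is not a mapped site, since the median member peak was 348 bases wide in replicate 1 and 339.5 in replicate 2.

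To show sites near stop codons as well, 4 more are given, namely those of the peaks outside this set with the highest −log10 q in their lower replicate among those with a stop codon summit in replicate 2. They were chosen after their values were seen.
Mrps34: aatgcgcccctgGGACtaccctgcaaaac
Mrpl41: atttgtcgtcccGGACttgacgggcttca
Mrpl34: gatggggctcccGGACtcctggcctctcc
Mrpl46, stop codon: gctgctcactggAGACTttgtgcaggctg

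All of these lay in the coding sequence upstream of the stop codon. Mrps34 (chr17:24896014-24896042, plus strand) had 3 GGAC near its summits, and the one shown was 50 nt before the stop codon. The Mrpl41 site (chr2:24974460-24974488, minus strand) was 221 nt, the Mrpl34 site (chr8:71465271-71465299, plus strand) 176 nt, and the Mrpl46 site (chr7:78775576-78775604, minus strand) 131 nt before the stop codon. The Mrpl34 summits were 197 nt apart, and the GGAC was near that of replicate 1 only.

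GGAC lay near a smaller share of the summits of the members than of all genes. GGAC lay within 50 nt of 28 of 58 placed summits in replicate 1 (48.3%, exact 95% interval 35.0 to 61.8) and of 24 of 50 in replicate 2 (48.0%, 33.7 to 62.6). Over the summits of all protein-coding genes the shares were 56.6% and 56.4%, which lie inside the intervals of the members. At the stop codon the member shares were 45.0% (29.3 to 61.5) and 45.9% (29.5 to 63.1). Over all genes they were 60.3% and 60.7% there, also inside the intervals. At the start codon they were 45.5% and 44.4%, against 49.7% and 51.9%. All 5 and 2 member summits inside the coding sequence had a GGAC nearby (intervals 47.8 to 100 and 15.8 to 100). Over all genes the shares there were 56.8% and 55.7%, inside these intervals. The broader DRACH was found near 96.6% and 100% of member summits and near 93.6% of all summits in each replicate, so it separated little. The motifs were searched on the sense strand only, and every GGAC followed by A, C or T is also a DRACH.

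Most of the family carried m6A peaks in both replicates. A summit lay in an exon in both replicates in 46 of 78 members (59.0%, exact 95% interval 47.3 to 70.0). Over all protein-coding genes this share was 30.9%. That set was not limited to genes expressed in these cells, and a gene without RNA can have no peak. The same holds wherever a count of genes is set beside all protein-coding genes. What part expression had in these differences was not tested. A further 9 members (11.5%) had a summit in 1 replicate, against 6.19% of all protein-coding genes, and 23 members had none. The intervals treat genes as independent draws and cover counting error only.

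The members with a summit at the stop codon in both replicates were Mrpl12, Mrpl13, Mrpl14, Mrpl16, Mrpl17, Mrpl18, Mrpl19, Mrpl20, Mrpl27, Mrpl33, Mrpl36, Mrpl43, Mrpl45, Mrpl46, Mrpl50, Mrpl51, Mrpl53, Mrpl57, Mrpl58, Mrps5, Mrps7, Mrps11, Mrps12, Mrps17, Mrps18b, Mrps24, Mrps25, Mrps26, Mrps27, Mrps30, Mrps33 and Mrps34. These were 32 of 78 (41%, 30 to 52.7), against 12.5% of all protein-coding genes. Mrpl1, Mrpl37, Mrpl46, Mrpl52, Mrps15, Mrps22 and Mrps28 had a summit at the start codon in both, which was 7 of 78 (8.97%, 3.68 to 17.6) against 5.24%. Mrpl44 and Mrps2 had theirs inside the coding sequence. In Mrpl10, Mrpl34, Mrpl41 and Mrps23 the region differed between the replicates, and in Mrpl9 and Mrpl15 the summits found in both replicates lay in exons of a transcript other than the one chosen for its longest coding sequence. Only Mrpl46 had 2 or more summits in both replicates (1.28% of members), against 10.9% of all protein-coding genes. The members with no summit were Mrpl2, Mrpl4, Mrpl11, Mrpl22, Mrpl23, Mrpl24, Mrpl30, Mrpl35, Mrpl38, Mrpl39, Mrpl42, Mrpl48, Mrpl49, Mrpl54, Mrps9, Mrps10, Mrps14, Mrps16, Mrps18a, Mrps18c, Mrps31, Mrps35 and Mrps36.

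Peaks were found in both subunits, and in proteins with and without a bacterial counterpart. Of 30 large-subunit members with a bacterial counterpart, 16 had a summit in both replicates, and of 21 that are particular to mitochondria, 13 did. Of 16 small-subunit members with a bacterial counterpart, 9 had one, and of 10 particular to mitochondria, 8 did. The share over all protein-coding genes was 30.9%. Mrps36, which carries a ribosomal name but works in the oxoglutarate dehydrogenase complex, had no summit. In the large subunit the median fold enrichment was 2.16 and 2.08 in replicates 1 and 2 for members with a bacterial counterpart and 2.84 and 2.82 for the others. In the small subunit it was 2.48 and 2.39 against 2.55 and 2.34.

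Some of the best-known proteins of this ribosome were in the group with peaks. Mrpl12, a protein of the stalk that contacts translation factors, had 200 and 193 IP reads over 132 and 130 control reads, and a fold enrichment of 1.73 and 1.41. Mrps12, which lies at the decoding centre, reached 2.41 and 2.49. Mrpl45, which holds the ribosome at the inner membrane, reached 2.46 and 2.82. Mrpl58, which releases peptides from stalled ribosomes, had 2.23 and 1.69 at its stop codon. In replicate 2 only, Mrpl58 had a further summit at its start codon (7.15, 29 IP over 3 control reads). Mrpl44, which has a fold like that of RNase III enzymes, reached 2.84 and 3.81 with its summits in the coding sequence. Fold enrichment is the ratio that MACS2 computed for the authors at the summit. For it the larger library is scaled down and a small constant is added to both sides. The control was scaled by 0.8735 in replicate 1 and the IP by 0.952 in replicate 2. Control reads are the background that MACS2 set against the IP reads. IP and control reads are given here before scaling, so their plain ratio differs from the fold enrichment.

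The strongest peaks were few and lay mostly at the start codon. Mrpl15, a large-subunit protein with a bacterial counterpart, had the highest fold enrichment in its lower replicate, with 9.89 in replicate 1 (78 IP over 8 control reads) and 10.5 in replicate 2 (87 over 7). Both summits lay in the last exon, of 1081 nt, of the transcript Mrpl15-205, in its 3′ UTR and 211 and 235 nt past the stop codon. That exon is not part of the transcript with the longest coding sequence. On the transcript with the longest coding sequence, Mrpl15 had a weaker summit in replicate 1 only (1.87, 141 IP over 86 control reads), 109 nt before the stop codon in an exon of 3591 nt.

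Mrps28, a small-subunit protein with a bacterial counterpart, reached 8.11 (78 IP over 10 control reads) and 9.28 (77 over 7), with summits 6 nt apart in exon 1. Mrps15, which has a bacterial counterpart in the small subunit, reached 6.77 (59 over 9) and 10.8 (61 over 4.48), the widest gap among the 7 strongest peaks. Mrpl46, a large-subunit protein particular to mitochondria, reached 6.57 (40 over 6) and 7.88 (47 over 4.8) at its start codon. These start codon summits all lay in exon 1, of 332 nt in Mrps28, 275 nt in Mrps15 and 283 nt in Mrpl46. Mrps28 had a further summit in replicate 1 only (2.55, 113 over 50), in exon 3 and 151 nt before the stop codon.

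Mrps22, a small-subunit protein particular to mitochondria, reached 5.93 (36 IP over 6 control reads) and 8.10 (50 over 5). Mrpl37, a large-subunit protein particular to mitochondria, reached 6.47 (88 over 14.6) and 5.90 (92 over 14). Mrpl52, of the same group, reached 7.29 (70 over 10) and 5.45 (62 over 10), with summits 3 nt apart in exon 2. In neither replicate did the 7 strongest peaks overlap in fold enrichment with the other one-to-one pairs of the family.

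Below them, the peaks were close to 3-fold and lay mostly near the stop codon. Mrps27, a pentatricopeptide repeat protein of the small subunit, had 3.15 (148 IP over 53 control reads) and 3.33 (148 over 41.6). Mrpl34, a large-subunit protein with a bacterial counterpart, had 3.14 (131 over 47) and 3.08 (135 over 41). Mrps34, a small-subunit protein particular to mitochondria, had 3.01 (194 over 73) and 2.98 (187 over 59). Mrps34 had a further summit at its start codon in replicate 2 (2.38, 52 IP reads).

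Mrpl1, a large-subunit protein with a bacterial counterpart, had 2.98 (67 IP over 25 control reads) and 3.48 (72 over 19) at the same base in both replicates, 155 nt past the start of its coding sequence. Mrpl41, a large-subunit protein particular to mitochondria, had 2.92 (173 over 67) and 2.94 (178 over 57), with summits 204 and 175 nt before the stop codon. These straddle the 200 nt limit of the stop codon class, so the gene changed class between the replicates. The stop codon peak of Mrpl46 had 2.85 (146 over 58) and 2.96 (142 over 45), with both summits at the same base, 109 nt before the stop codon. Mrpl46 was thus lower at its stop codon than at its start codon in each replicate, with 3 times as many IP reads there or more.

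**Figure D1:**
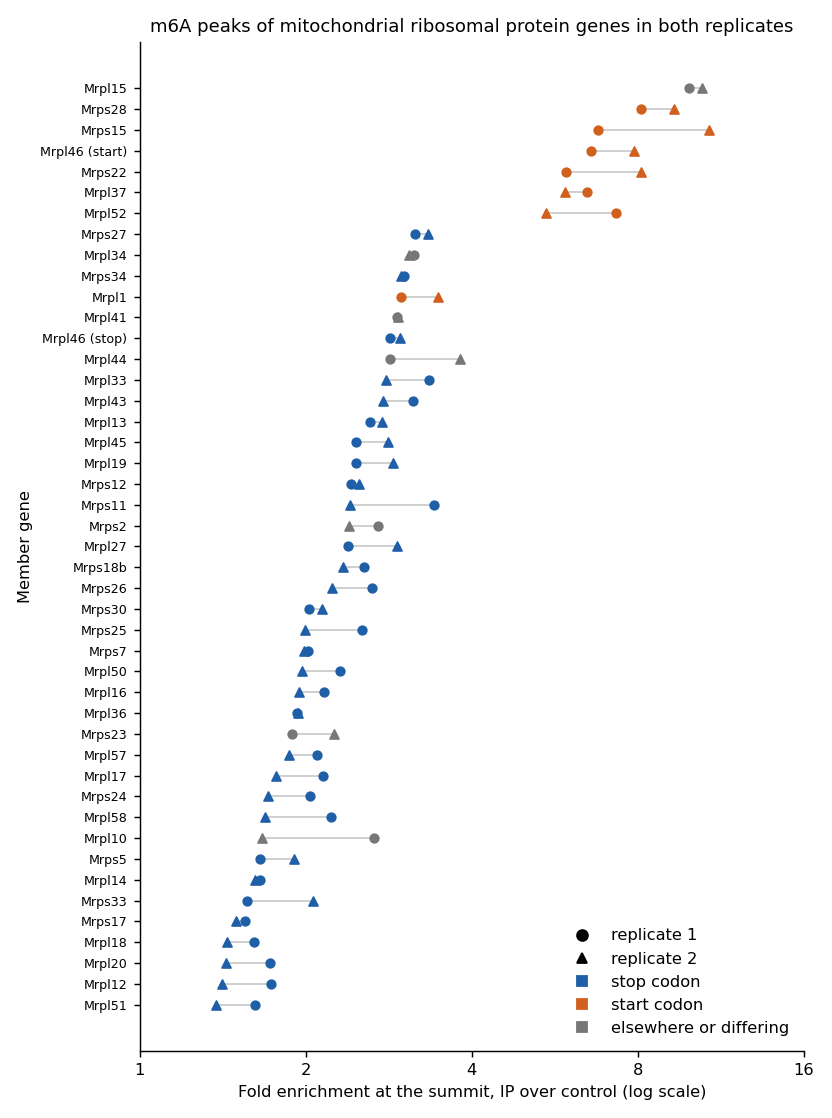
Fold enrichment at the summit (horizontal log axis, IP over control) in replicate 1 (circles) and replicate 2 (triangles) for the 45 one-to-one pairs of overlapping peaks in member genes, ordered by the lower of both values. Orange marks summits at the start codon, blue those at the stop codon and grey those elsewhere or in a region that differed between the replicates. The 7 highest pairs lie above 5 and the other 38 below 4, and none of the 7 is at a stop codon.

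At the bottom of the range were Mrpl51 (1.62 and 1.37, with 162 and 155 IP reads), Mrpl12, Mrpl20 (1.72 and 1.43), Mrpl18 (1.61 and 1.44) and Mrps17 (1.55 and 1.5). The −log10 q of Mrpl51 and Mrpl20 in replicate 2 was 1.54 and 1.58. With a −log10 q of at least 3, the members named here and Mrps33 (2.63 in replicate 1) no longer had a summit in both replicates. That left 40 members (51.3%), beside 30.2% of all protein-coding genes. With a −log10 q of at least 5, 37 members (47.4%) had a summit in both replicates, beside 28.9% of all protein-coding genes.

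The 2 replicates ranked the member peaks alike. Over the 45 one-to-one pairs Spearman's rho of the fold enrichment was 0.866, the SD of its log2 ratio between replicates was 0.27, and the median distance between summits was 8 nt. All 45 pairs were within 2-fold of each other. The same values over 9399 pairs in protein-coding genes were 0.825, 0.45 and 15 nt. The peaks of one gene family in 2 libraries share library and depth, so these values describe how the lists match and no p-value is given.

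Of the 9 members with a summit in 1 replicate, 6 had one of at most 2.32-fold at the stop codon, and 3 had one in an exon shared with a neighbouring gene. In replicate 1 only, Mrpl28 (1.76, 113 IP over 73 control reads), Mrpl32 (2.03, 113 over 63) and Mrpl40 (1.5, 133 over 101) had a summit at the stop codon. Mrps21 had one at the stop codon (2.32, 137 over 67) and another on its transcript Mrps21-202 (4.85, 42 over 9). Mrpl21 had a summit of 6.31 (34 over 5.2) at its start codon, in an exon it shares with Ighmbp2.

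Mrps6 had a summit of 7.80 from 10 IP over 0.47 control reads, in an exon it shares with Slc5a3 and Gm49711. In replicate 2 only, Mrpl3 (1.53, 113 over 70) and Mrpl55 (2.22, 97 over 41) had a summit at the stop codon. Mrpl47 had one of 7.19 (26 over 2.58) in its 5′ UTR, in an exon shared with Ndufb5. Without a strand in the lists, such a summit may belong to either gene.

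Among the 46 members with a summit in both replicates, the same held for Mrpl53, whose exon overlaps Gm42688, for Mrps18b, whose exon overlaps Gm16279, and for the summit of Mrpl12 in replicate 2, which also lies in Gm16755. A further summit of Mrpl13 in replicate 1 (6.15, 32 over 5) lay in an exon shared with Mtbp, and one of Mrps30 in replicate 1 (4.84, 47 over 10.2) in an exon shared with B430218F22Rik. This Mrps30 peak overlapped one of replicate 2 (4.65, 38 IP reads), whose summit lay outside the exons of the basic set. Mrpl13 and Mrps30 also had an unshared stop codon summit in each replicate. Without shared summits 43 members (55.1%) remained, beside 29.1% of all protein-coding genes.

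Most member summits lay near the stop codon. Of the summits placed on the chosen transcripts, 40 of 58 in replicate 1 (69.0%, exact 95% interval 55.5 to 80.5) and 37 of 50 in replicate 2 (74.0%, 59.7 to 85.4) lay within 200 nt of the stop codon. Over all protein-coding genes the shares were 30.4% and 29.4%. Start codon summits made up 19.0% and 18% in the members and 15% and 15.7% over all genes. Inside the coding sequence there were 5 member summits in replicate 1 and 2 in replicate 2, and in the 3′ UTR beyond the stop codon window 1 in each.

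The stop codon window covers more of a short mRNA than of a long one. Member transcripts had a median length of 1302 nt, against 2544 nt over all protein-coding genes, and a median coding length of 585 nt, against 1176 nt. In the 46 members with a summit in both replicates the window took 19.0% of the summed transcript length and a median of 28.4% per transcript. Over all genes with a summit in both replicates it took 10.1% and 11.8%. What part the length of the transcripts had in the share of stop codon summits was not tested.

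Of the stop codon summits, 25 of 40 in replicate 1 (62.5%) and 23 of 37 in replicate 2 (62.2%) lay upstream of the stop codon. Over all genes the shares were 47.9% and 47.4%. No interval was computed for these shares, and the difference was not tested. The median position in the members was 15.5 and 12 nt upstream. All stop codon summits of the members were in the last exon, as were 98.7% and 99% of those of all genes. The last exon was also the longest in 72 of the 78 members (92.3%), beside 84.4% of all genes. With a window of 100 nt the mean share over the replicates was 44.0%, and with 400 nt it was 77.8%.

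**Figure D2:**
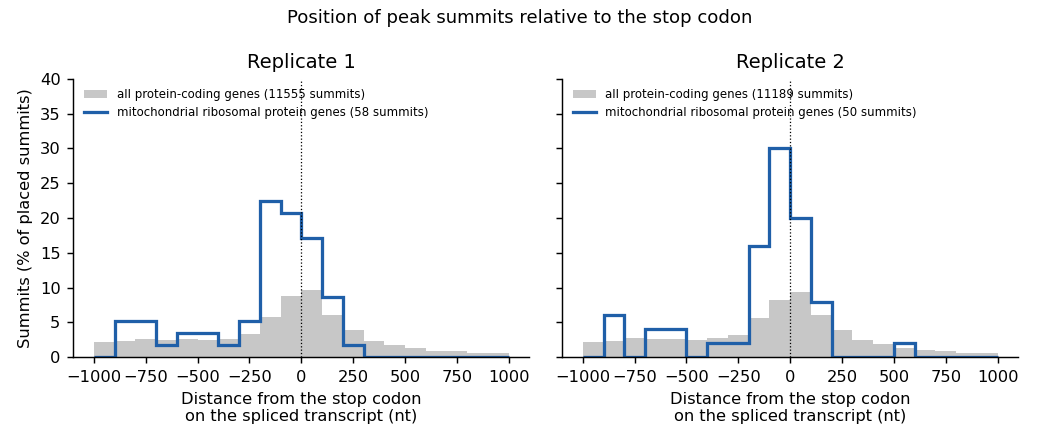
Summits per 100 nt (% of placed summits) against their distance from the stop codon on the spliced transcript, in nt, for replicates 1 and 2. Blue lines are the members (58 and 50 summits), grey areas all protein-coding genes (11555 and 11189 summits), and the dotted line is the stop codon. Member summits are densest in the bins from 200 nt upstream to 100 nt downstream, where each bin holds 16 to 30% of them, and nearly absent beyond 300 nt downstream.

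Stop codon peaks of the members had many reads and a low ratio. Their median fold enrichment was 2.16 in replicate 1 (range 1.5 to 3.42) and 2.06 in replicate 2 (1.37 to 3.33), against 3.48 and 3.63 for the stop codon summits of all protein-coding genes. The median IP count was 136 and 138 reads, above the 91 and 88 of all genes. The median control count was 71.5 and 59 reads, against 28 and 21. The members thus had more IP reads and, by a larger factor, more control reads.

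At like control counts the medians of the members and of all genes were closer, with the members above in some classes and below in others. In replicate 1, stop codon summits with 40 to 60 control reads had a median fold enrichment of 2.73 in 8 member summits and 2.71 in 652 of all genes. With 60 to 80 the values were 2.30 in 19 and 2.25 in 331, and with 80 or more 1.72 in 12 and 1.79 in 273. In replicate 2 they were 2.79 in 19 and 2.42 in 437, 1.81 in 12 and 1.96 in 219, and 1.44 in 6 and 1.67 in 115. Below 40 control reads there was 1 member summit in replicate 1 and none in replicate 2, whereas 64.2% and 76.5% of all stop codon summits lay there. The control library is not given in the sources used here, so a control count may stand for input reads at the site or for a local or genome-wide background. Where it stands for input reads, fewer cells with a transcript and less of it per cell cannot be told apart in these bulk samples. The control counts also enter the fold enrichment itself, so the values describe its make-up and are no independent test.

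**Figure D3:**
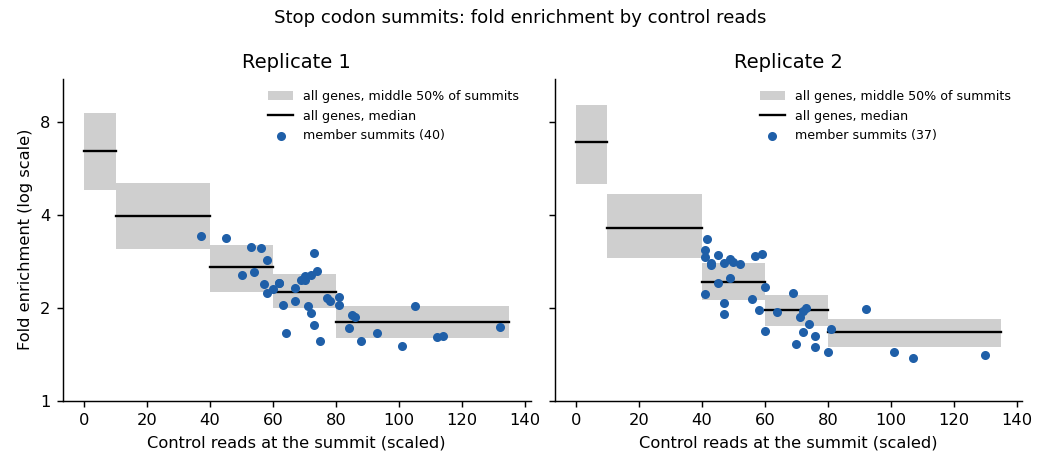
Fold enrichment (vertical log axis) against control reads at the summit for stop codon summits in replicates 1 and 2. The counts are those before the libraries were scaled, although the axis label calls them scaled. Blue points are single member summits (40 and 37). Black lines and grey boxes give the median and the middle 50% of the summits of all protein-coding genes in classes of 0 to 10, 10 to 40, 40 to 60, 60 to 80 and 80 or more control reads. Member summits crowd at 40 control reads and above, where the fold enrichment of all genes is low, and fall in and around the grey boxes.

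Start codon peaks were the reverse, with few reads and a high ratio. Their median fold enrichment was 6.47 in replicate 1 (11 summits, range 2.98 to 8.11) and 7.15 in replicate 2 (9 summits, 2.38 to 10.8), against 5.10 and 5.61 over all genes. The median count was 67 and 61 IP reads over 10 and 7 control reads, against 48.5 and 47 over 10 and 7. Of these summits, 8 of 11 (72.7%) and 7 of 9 (77.8%) lay in the first exon, beside 61.2% and 62.2% over all genes. The antibody also binds m6Am, a methylated adenosine next to the cap, so a peak close to the start of a transcript cannot be told apart from that mark.

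The low ratio at stop codons meant that a limit on fold enrichment turned the order of the shares around. At a fold enrichment of at least 4, 7 of 78 members (8.97%, 3.68 to 17.6) had a summit in both replicates. This was below the 16.9% of all protein-coding genes, which lies inside the interval of the members. These 7 were Mrpl15, Mrpl37, Mrpl46, Mrpl52, Mrps15, Mrps22 and Mrps28. None of the summits left at that limit lay at a stop codon.

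Members with a peak in both replicates had the higher median of the longest exon, as was so over all protein-coding genes. The median longest exon was 781.5 nt in the 46 members with a summit in both replicates, 495 nt in the 9 with 1, and 453 nt in the 23 with none. Over all protein-coding genes these medians were 1705, 1072 and 984 nt. Among members whose longest exon was under 400 nt, 7 of 20 (35.0%, exact 95% interval 15.4 to 59.2) had a summit in both replicates, beside 8.6% of all genes in that class. From 400 to under 1000 nt it was 21 of 30 (70.0%, 50.6 to 85.3), beside 25%, and from 1000 nt 18 of 28 (64.3%, 44.1 to 81.4), beside 39.6%. In both replicates, start codon summits were in 4 of the 20 members with short exons and stop codon summits in 3, beside 3.61% and 2.64% of all genes in that class. From 400 to under 1000 nt start codon summits were in 2 of 30 and stop codon summits in 15, beside 5.16% and 11.1%. From 1000 nt start codon summits were in 1 of 28 and stop codon summits in 14, beside 5.74% and 15.9%. Stop codon summits were thus the more frequent kind from 400 nt, in the members as in all genes. Below 400 nt start codon summits were more frequent over all genes, and the members, with 4 against 3, were too few to tell.

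Transcript length separated the members less. With under 1000 nt, 14 of 25 (56.0%) had a summit in both replicates, with 1000 to under 2000 nt 17 of 28 (60.7%), and with 2000 nt or more 15 of 25 (60%). Over all genes the same classes rose from 8.08% over 20.4% to 39.7%. The share was higher in the members in each of these classes, most of all among short mRNAs. The classes of all genes were again not limited to genes expressed in these cells.

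**Figure D4:**
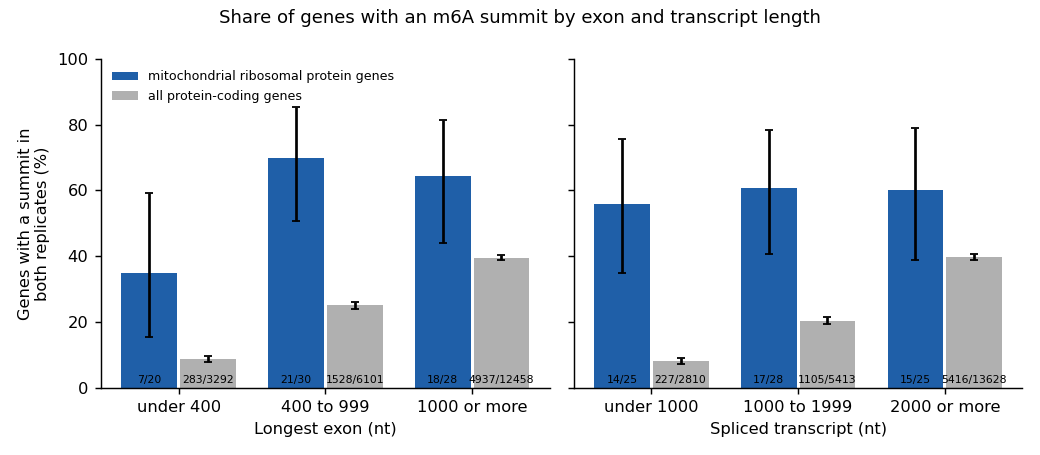
Genes with a summit in both replicates (%) by longest exon and by spliced transcript length, for the members (blue) and all protein-coding genes (grey), with exact 95% intervals as bars and the counts at the foot. In members the share is 35.0% below 400 nt of longest exon and 64.3 to 70.0% above, while it differs little with transcript length (56.0 to 60.7%). The grey bars rise with both.

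Summits were found at both extremes of transcript length. The 3 shortest members were Mrpl52 (418 nt, longest exon 175 nt) and Mrpl33 (478 nt, 268 nt), both with a summit in each replicate, and Mrps21 (488 nt, 299 nt), with one in replicate 1 only. The 3 longest were Mrps17 (5061 nt), Mrps25 (6073 nt) and Mrpl17 (7300 nt), all with a stop codon summit in each replicate and a last exon that made up most of the mRNA.

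Among members with a longest exon of at least 400 nt, 13 of 58 had no summit in any exon. Mrpl48 (longest exon 3632 nt), Mrps35 (3438 nt), Mrpl35 (3291 nt), Mrps14 (2743 nt), Mrpl11 (2326 nt), Mrps16 (2157 nt) and Mrpl49 (1361 nt) had one of over 1000 nt. The others were Mrpl39 (809 nt), Mrps31 (485 nt), Mrps10 (480 nt), Mrpl30 (475 nt), Mrpl24 (453 nt) and Mrps18a (406 nt). All but Mrpl35 and Mrpl49 had at least 1 GGAC within 200 nt of the stop codon. GGAC in that window was present in 41 of 46 members with a summit in both replicates (89.1%), in 20 of 23 with none (87.0%), and in 4 of the 9 with a summit in 1 (44.4%). Over all protein-coding genes it was 75.9%. No read counts are at hand for genes without a peak, so a low level of the mRNA and a lack of m6A cannot be told apart in them.

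**Figure D5:**
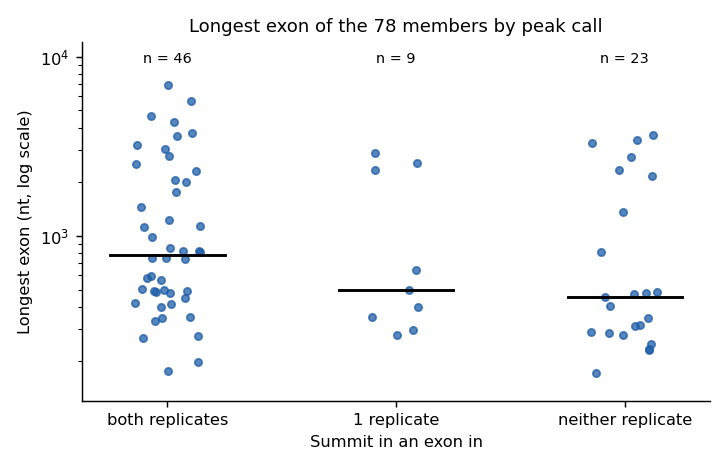
Longest exon of the chosen transcript (nt, log axis) of each of the 78 members, by whether a summit lay in an exon in both replicates (46), in 1 (9) or in neither (23). Black lines are the medians of 781.5, 495 and 453 nt, and the 3 groups overlap over most of their range.

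The other ribosomal family and the respiratory chain gave other pictures. Of 85 cytosolic ribosomal protein genes, 10 (11.8%, 5.79 to 20.6) had a summit in both replicates, 5 of them at the start codon and none at the stop codon. The second list held 86 nuclear genes of respiratory chain and ATP synthase subunits, most of which work beside products of the mitochondrial ribosome. Of these, 16 (18.6%, 11 to 28.4) had a summit in both replicates, 9 at the start codon and 2 at the stop codon. The exact intervals of both lie below that of the mitochondrial ribosomal protein genes (47.3 to 70.0). The difference was not tested, and levels of these mRNAs were not measured here. Atp5o is the symbol of 2 of the 86 entries, and neither list was limited to genes expressed in these cells.

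Other genes of mitochondrial translation carried peaks as well, in lists chosen by function. For comparison, 30.9% of all protein-coding genes had a summit in both replicates. Of 5 proteins of the same ribosome with other names, Ptcd3 (2.25 and 2.0), Aurkaip1 (5.44 and 6.39) and Gadd45gip1 (1.59 and 1.52) had a summit in both replicates, Dap3 (7.34) in replicate 1 only, and Chchd1 in none. Of 10 translation factors 9 had one in both, all but Mtrf1. They included the initiation factors Mtif2 and Mtif3, the elongation factors Tufm, Tsfm, Gfm1 and Gfm2, the recycling factor Mrrf, and Mtfmt, which formylates the initiator tRNA.

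Of 25 genes for assembly of the ribosome and modification of its RNA, 19 had a summit in both replicates (30.9% of all protein-coding genes did). Among them were the methyltransferases Mrm1, Mrm2 and Mrm3, the GTPases Eral1 and Mtg2, the helicases Ddx28 and Dhx30, and the endonuclease Ybey, which had the highest values of those called in both but for Mettl15 in replicate 2 (9.80 and 9.31). Mterf3, Mtg1, Mettl17 and Mpv17l2 had none, Nsun4 had a summit in replicate 1 only and Malsu1 in replicate 2 only. Taking each gene's summit of highest −log10 q, the median fold enrichment was 4.28 and 4.16 in the assembly genes and 2.50 and 2.39 in the mitochondrial ribosomal protein genes, beside 4.49 and 4.76 over all protein-coding genes. The median IP count was 129 and 122.5 in the former and 132 and 129 in the latter, and the median control count 31 and 27.1 against 63.5 and 52. Over all protein-coding genes the median was 81 and 77 IP reads over 19 and 14 control reads.

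The labelled cell type was checked with marker genes, as far as peaks allow. Among genes of stem, progenitor and erythroid cells, 7 had a summit in both replicates (Gata2, Tal1, Runx1, Spi1, Cd34, Epor and Klf1), and Kit, Gata1, Myb and Ptprc had none. Of 4 hepatocyte genes, Apoa1 had a summit in both replicates (4.85 and 5.24, 42 and 54 IP reads), Afp in replicate 1 only (7 IP reads), and Alb and Ttr had none. Of all protein-coding genes, 30.9% had a summit in both replicates. A peak shows that RNA of the gene was present, but a gene without one may still be expressed, so the lists neither measure the cell types nor show that one is absent.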

How the data were processed

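The authors aligned reads with HISAT2 to GRCm38 (mm10) and called peaks in each of 2 replicates with MACS2 (version 2.1.1.20160309 in the submitters' processing notes, nomodel option). The threshold and control library are not given in the sources used here. The deposited lists give per peak a fold enrichment, which is the ratio of IP to background at the summit, a −log10 p-value, a −log10 q-value and a whole-number score that follows the q-value. Inputs enter only through these.

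Summits (peak start plus offset, first base as 1) were placed in exons of the GENCODE M21 basic set, and on each gene's transcript with the longest coding sequence. The stop codon took precedence over the start codon within 200 nt. IP and control reads were computed for each peak from its deposited ratio and p-value by inverting the formulas of MACS2. In both replicates 100% of peaks matched within 0.001 in −log10 p. Recovery and placement were tested on simulated data. Intervals are exact Clopper-Pearson 95% intervals and cover counting error only. Python 3.11, numpy 2.4.6 and scipy 1.17.1 were used.

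Members and lists were chosen with earlier results of these data known. Every member is named by its call. Full values are given for the 12 members of highest fold enrichment in the lower replicate among one-to-one shared peaks, for members with 2 or more peaks in each replicate and for those with a summit in 1 replicate. Length and exons are given for the 3 longest and the 3 shortest members and for those with a longest exon of at least 400 nt and no summit. The sources say 2 biological replicates and not which animals they came from. Alternatives were limits on fold enrichment and q, shared peaks only, summits in 1 gene only, 1 replicate at a time, other annotations and other windows. The 12 printed sites were read from GENCODE transcripts and were equal to the GRCm38 sequence. The result for 1 marker gene is not reported here.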

Additional observations from a re-analysis of the deposited data

How the results depend on the processing

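No paired analysis was possible because the peak lists belong to a single group of samples and no test between groups was made. The count of 46 members with a summit in both replicates stayed within 1.5 times under 8 of 9 alternatives (lowest 37, highest 52 among these) and fell to 7 with a minimum fold enrichment of 4. Single replicates gave 49 to 52. That limit also moved the mean share of stop codon summits from 71.5% to 0%, that of summits with GGAC nearby from 48.1% to 45.0%, and the median fold enrichment from 2.42 to 7.20. It turned the difference in median longest exon between members with and without a summit from 328.5 nt to -412.5 nt, and the cause was not tested. The stop codon share was 44.0% with a window of 100 nt and 77.8% with 400 nt, and 69.0 to 74.0% in single replicates. The GGAC share was 27.7% within 25 nt, 73.1% within 100 nt and 98.3% with DRACH in its place. The replicates differed by so little in it that small shifts count as well, namely 49.5% and 48.9% with a −log10 q of at least 3 and 5, 51.6% over shared peaks, 49.9% without summits in several genes and 46.3% on the longest transcripts. It was 48.0 to 48.3% in single replicates. The median fold enrichment was 2.52 and 2.65 with a −log10 q of at least 3 and 5, and 2.38 to 2.46 in single replicates. The difference in longest exon was 280.5 to 360 nt in single replicates and 273 to 366 nt under the 9 alternatives that kept its sign. Read depth was not given, and a gene with few reads may carry m6A without a peak.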

Other observations

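Inside the bounds of 13 members lay 23 further summits that were in none of their exons in the basic annotation, counted over both replicates. Mrpl38, which had no exonic summit, had 2 in each replicate, of 4.52 and 4.26 in replicate 1 (47 and 62 IP reads) and 5.54 and 5.62 in replicate 2 (63 and 58 IP reads). All of these lay in exons of the comprehensive transcript set. Mrpl51 had one of 3.66 and 3.24 (64 and 69 IP reads), also in such an exon, and Mrpl18 one of 2.42 and 2.23 (124 and 123 IP reads). The summits inside Mrpl48 (6.26 and 6.04, with 14 and 18 IP reads) lay in an exon of Rab6a, and the 5 inside Mrps6 lay in exons of Slc5a3.

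Among the summits found in 1 replicate were those of Mrpl1 (12.6, 27 IP reads), Mrpl42 (9.89, 59 IP reads), Mrpl2 (3.85, 97 IP reads), Mrps11 (4.70, 53 IP reads) and Mrps18a (4.07, 45 IP reads) in replicate 1, and of Mrpl12 (4.83, 134 IP reads) and Mrpl27 (9.25, 67 IP reads) in replicate 2. Mrpl2, Mrpl42 and Mrps18a had no summit in an exon of the basic set. Those of Mrpl12, Mrpl27 and Mrps18a lay in exons of the comprehensive set, and those of Mrpl1, Mrpl2, Mrpl42 and Mrps11 did not.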
